A study of Homo sapiens with 9 samples.

Results

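Cholesterol and fatty acid synthesis genes were followed in HCT116, a cell line established from a human colorectal carcinoma, with normal, disrupted or re-expressed A20. A20, encoded by TNFAIP3, is a ubiquitin-editing enzyme that restrains inflammatory signalling. The 38 genes were chosen by name, from what is known of the pathway, out of the 58735 genes of the deposited table. Earlier results of these data were known when they were chosen. They comprised 4 regulators, 7 enzymes of the mevalonate arm, 11 enzymes from squalene to cholesterol, 3 sterol transport genes, 3 targets of liver X receptors (LXR), 4 genes of fatty acid synthesis, and 6 genes of desaturation, elongation and lipin function. Levels are given as FPKM, that is, fragments divided by gene length and by a depth of the library, so that genes of different length can be set side by side. All 38 members passed the filter of a mean of at least 0.1 FPKM over the 9 libraries, and their means ran from 0.380 FPKM for ABCA1 to 250 FPKM for SCD.

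RNA-seq covered 3 groups of 3 libraries: A20-WT (HCT116 cells with intact A20), A20-KO (A20 knockout) and A20-OE (A20 put back into the knockout cells, which the study calls rescue or RE). The Methods describe guides against A20 in a lentiviral CRISPR vector and a Flag-tagged A20 expression vector, and they do not state whether the knockout cells of these libraries were a single clone. Nothing states that the libraries of a group came from separate cultures, so the p-values measure the spread between these libraries, which may be technical. In such bulk samples, fewer cells of a kind and less RNA per cell cannot be told apart. Libraries held between 23406222 and 24963691 gene-assigned reads.

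TNFAIP3 mRNA stood at 0.8693, 0.8002 and 0.7364 FPKM in A20-WT libraries 1, 2 and 3, at 1.93, 2.16 and 1.04 FPKM in A20-KO, and at 58.7, 66.5 and 56.5 FPKM in A20-OE. The mRNA of the targeted gene thus did not fall where the label says A20-KO. It was higher than in A20-WT (log2 fold change 0.95, limma adjusted p = 0.0182). In A20-OE, TNFAIP3 mRNA lay far above A20-WT (log2 fold change 6.07, limma adjusted p = 1.99e-06). A20-OE is thus no return to the A20-WT level of this mRNA. These mRNA values do not show whether A20 protein was lost. The paper has a panel of A20 expression in its knockout and rescue cells, and its text states no values for it. A direction drawn from the A20-KO label rests on that label and on the paper's panel, not on these mRNA values. Of 8 epithelial markers 7 reached 1 FPKM, with sums of 1151 to 1571 FPKM in A20-WT, 1833 to 2408 in A20-KO and 1849 to 2420 in A20-OE. None of 6 immune markers and none of 4 endothelial markers reached 1 FPKM in a library. The fibroblast markers summed to 4.60 to 5.86 FPKM in A20-WT, 12.6 to 15.1 in A20-KO and 11.1 to 12.3 in A20-OE; COL1A1 was the single one of 6 to reach 1 FPKM, LUM and DCN were near 0, and the part of this list in the results was not tested. The share of reads on mitochondrial genes was 8.79% ± 1.30 (SD, n = 3) in A20-WT, 10.4% ± 1.36 (SD, n = 3) in A20-KO and 12.7% ± 1.08 (SD, n = 3) in A20-OE. Libraries also differed in a gradient along GC content. The median deviation of the genes in the highest GC quartile minus that in the lowest was -0.787 (log2) in A20-WT library 1 and 0.539 in A20-KO library 3, and it lay between -0.158 and 0.245 in the other 7 libraries.

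Cells build cholesterol from acetyl-CoA through mevalonate and squalene, and fatty acids from the same precursor through malonyl-CoA. The transcription factors SREBP-2 and SREBP-1, encoded by SREBF2 and SREBF1, drive these pathways when sterols are scarce: SCAP escorts them from the endoplasmic reticulum and INSIG proteins hold them there. LXR, which senses oxidised sterols, turns on export genes such as ABCA1 and ABCG1. In colorectal carcinoma, as in many tumours, lipid synthesis is known to supply membranes for growth.

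In A20-KO against A20-WT, 12 of the 38 members were called higher and 0 lower by limma at an adjusted p under 0.05, while 11.3% of the 21636 genes tested were called higher and 11.0% lower. The median log2 fold change of the members was 0.33, beside -0.01 over all genes tested. In A20-OE against A20-KO, 19 members were called lower and 1 higher, beside 4.54% and 4.43% of all genes, with a median of -0.42 beside 0.01. In A20-OE against A20-WT, 10 members were called lower and 8 higher, beside 15.4% and 15.7% of all genes, with a median of -0.12 beside 0.03. These shares cover genes down to a mean of 0.1 FPKM, while all members but ABCA1 and ABCG1 had a mean of at least 1. Tested over the 12796 genes of at least 1 FPKM, 17.0% were called higher and 19.1% lower in A20-KO against A20-WT. The shares were 7.40% and 8.78% in A20-OE against A20-KO, and 20.4% and 25.1% in A20-OE against A20-WT. The members' 8 higher and 10 lower of 38 do not stand out from the last pair. The changes were mostly under 2-fold. TM7SF2 alone passed a fold of 2 in A20-KO against A20-WT (background 6.99%) and in A20-OE against A20-KO (background 2.39%), and ACAT2 and ABCG1 did so in A20-OE against A20-WT (background 11.9%). The first and the second comparison share the A20-KO libraries, the second and the third the A20-OE libraries, and the first and the third the A20-WT libraries, so the comparisons are not independent of each other.

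**Figure D1:**
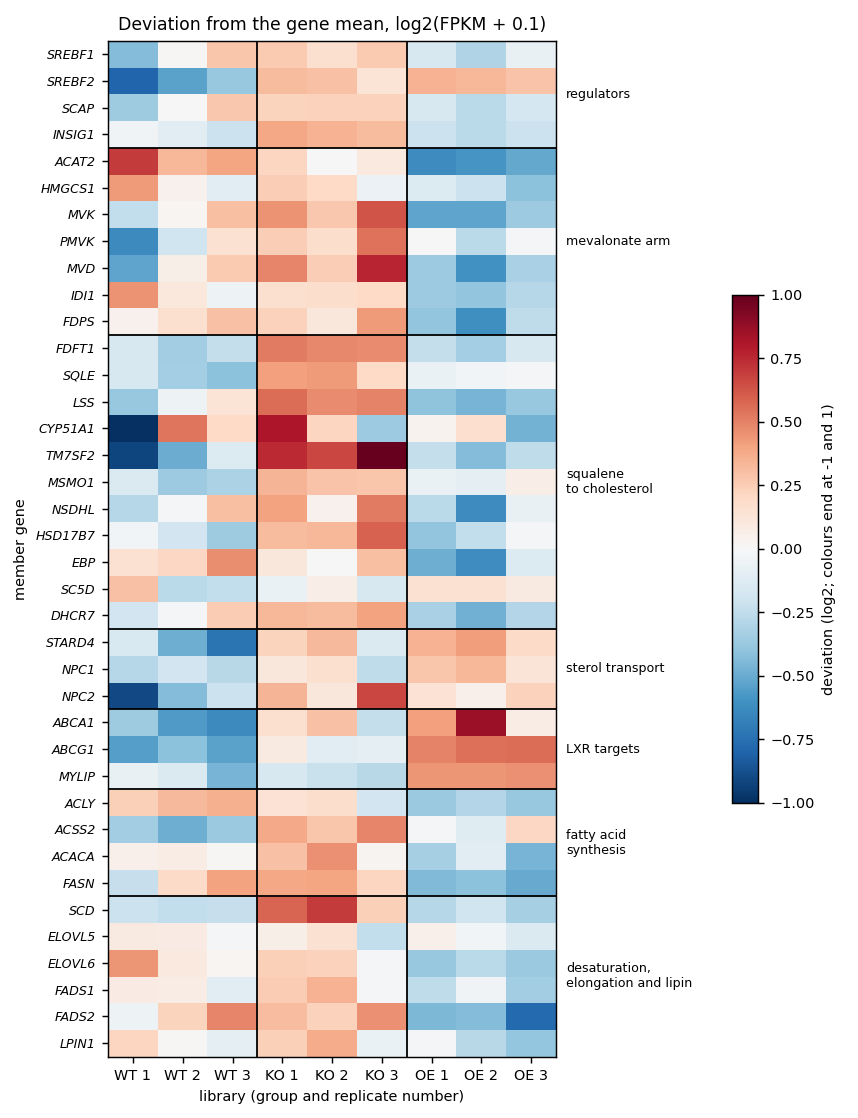
Deviation of each member gene (rows, by role) from its own mean over the 9 libraries (columns), in log2(FPKM + 0.1); red is above the mean and blue below, and the colours end at -1 and 1. Most rows from FDFT1 to DHCR7 are red in the 3 A20-KO columns, most mevalonate and fatty acid rows are blue in the 3 A20-OE columns, and the LXR targets are red there.

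The groups separated fully for a part of the members. All 3 A20-KO libraries lay above the other 6 for 11 of 38 members (INSIG1, PMVK, FDFT1, SQLE, LSS, TM7SF2, MSMO1, HSD17B7, DHCR7, ACSS2 and SCD), beside 4.80% of all genes tested. This order is of FPKM as deposited. With the GC gradient removed, the log2 fold change of A20-KO against A20-WT fell for PMVK (0.55 to 0.23), DHCR7 (0.33 to 0.06), LSS, TM7SF2 and ACSS2. The fold change rose for INSIG1, FDFT1, SQLE, MSMO1, HSD17B7 and SCD. All 3 A20-OE libraries lay below the other 6 for 12 members (ACAT2, HMGCS1, MVK, IDI1, FDPS, EBP, DHCR7, ACLY, ACACA, FASN, ELOVL6 and FADS2), beside 9.60% of all genes. They lay above the other 6 for ABCG1 and MYLIP, 2 of 38 members, which is under the 9.98% of all genes.

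How firmly a call held differed between the comparisons. In A20-KO against A20-WT, 10 of the 12 calls held in all 23 alternative settings. The exceptions were HSD17B7, lost without A20-KO library 3, and STARD4, lost in 12 settings with adjusted p up to 0.110. In A20-OE against A20-KO only INSIG1, FDFT1 and LSS held throughout. The 19 members called lower there became 4 without A20-OE library 2 (INSIG1, FDFT1, LSS and SCD), 5 without A20-OE library 1 (INSIG1, FDFT1, LSS, TM7SF2 and DHCR7) and 7 without A20-KO library 1 (the last 5 with MVK and SCD), and 11 without A20-WT library 2, A20-KO library 2 or A20-OE library 3. Over all genes tested the share called lower fell alongside, to 1.09%, 0.961% and 1.13% in the first 3 of these settings. It was 2.55%, 2.63% and 2.23% in the last 3. MYLIP, the single member called higher, was lost without A20-OE library 1 or 2. No called member changed direction in any setting. In A20-OE against A20-WT, 10 of 18 calls held in every setting that could be run: SREBF2, ACAT2, IDI1, FDPS, EBP, STARD4, ABCG1, MYLIP, ACLY and FADS2. The 8 members called higher became 5 without A20-WT library 2, A20-OE library 1 or A20-OE library 2, and the 10 called lower became 6 without A20-OE library 1. Over all genes tested, 12.4%, 11.2% and 12.2% were called higher in these 3 settings, and 11.1% lower without A20-OE library 1.

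**Figure D2:**
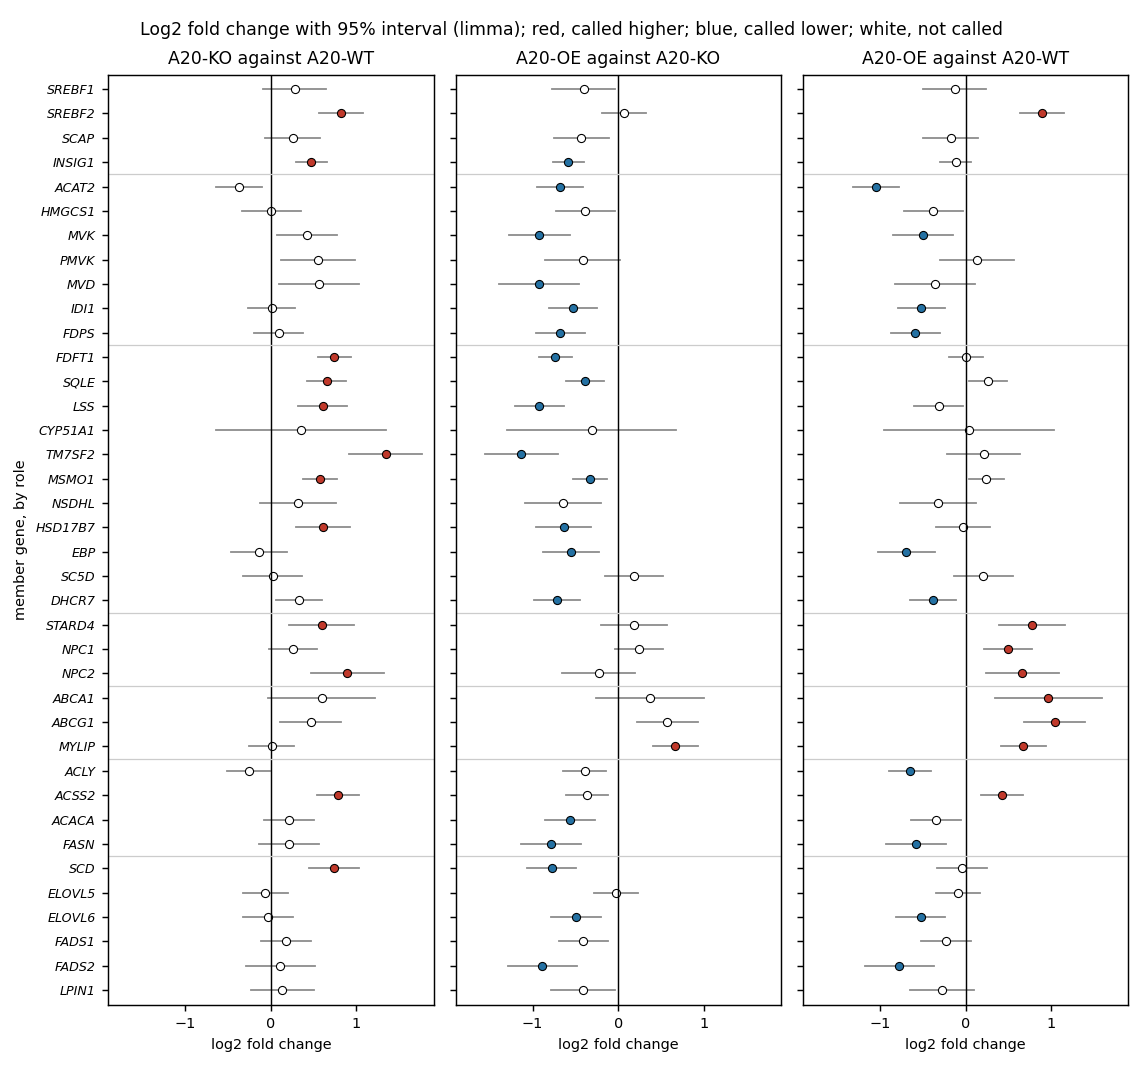
Log2 fold change with its 95% interval from limma for the 38 members (rows, by role) in the 3 comparisons (panels); red points were called higher, blue points called lower and white points not called. No blue point appears in the left panel, 1 red point (MYLIP) in the middle panel, and both colours in the right panel, where the transport genes and LXR targets are all red.

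Among the regulators, SREBF2 was higher in A20-KO and A20-OE than in A20-WT. SREBF2, the gene of SREBP-2 (ENSG00000198911, plus strand of chromosome 22, 41833079 to 41907308 on GRCh38), stood at 23.1, 27.6 and 30.8 FPKM in A20-WT, 50.1, 49.3 and 44.3 in A20-KO, and 51.1, 50.6 and 49.0 in A20-OE. All 6 A20-KO and A20-OE libraries lay above the 3 A20-WT libraries. The log2 fold change was 0.82 (standard error, SE, 0.11, limma adjusted p = 0.0015) in A20-KO against A20-WT and 0.89 (SE 0.11, adjusted p = 0.000472) in A20-OE against A20-WT, while A20-OE and A20-KO differed by 0.07 with an interval from -0.19 to 0.33.

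INSIG1, a sterol-regulated gene whose protein retains SCAP in the endoplasmic reticulum, followed another pattern: 20.6, 19.6 and 18.2 FPKM in A20-WT, 27.7, 27.0 and 26.3 in A20-KO, and 18.2, 17.5 and 18.2 in A20-OE. It was high in the A20-KO libraries alone. Its difference on the log2 scale was 0.47 (SE 0.08, adjusted p = 0.00383) in A20-KO against A20-WT and -0.58 (SE 0.08, adjusted p = 0.00471) in A20-OE against A20-KO, and A20-OE against A20-WT gave -0.11 with an interval from -0.29 to 0.07. SREBF1, the gene of SREBP-1, had values of 28.1, 38.4 and 46.1 FPKM in A20-WT, 45.6, 42.4 and 45.7 in A20-KO, and 34.1, 30.9 and 36.1 in A20-OE. The A20-WT libraries of SREBF1 spanned the range of both other groups, and no comparison was called. SCAP, the escort protein, had 14.4, 18.5 and 22.2 FPKM in A20-WT, 21.4, 21.6 and 21.6 in A20-KO, and 16.4, 15.2 and 16.3 in A20-OE, again with no call. For both genes the sign of A20-KO against A20-WT depended on the GC gradient: 0.28 and 0.26 on the log2 scale as deposited, -0.15 and -0.08 after the gradient was removed. The sign of this comparison also changed for FDPS (0.09 to -0.06), FASN (0.21 to -0.25), FADS2 (0.11 to -0.16), ELOVL5 (-0.06 to 0.17) and ELOVL6 (-0.04 to 0.22). Of these, ELOVL6 alone was called, and only after the removal.

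Promoter sequence was searched for motifs known from sterol-regulated genes. RefSeq promoter windows (250 bases before to 50 after a start site, GRCh38.p14) were found for 33 of the 38 members, in 46 windows; ACAT2, FDFT1, SQLE, ABCG1 and FASN had none. A CCAAT box (CCAAT on either strand), the site known for the NF-Y factor that works beside SREBPs, was in 28 of the 46 windows (60.9%) and in 34.6% of the 35116 windows of the table. By role it was in 9 of 11 windows from squalene to cholesterol (81.8%), 5 of 7 of fatty acid synthesis (71.4%), 6 of 9 of the mevalonate arm (66.7%) and 3 of 9 of desaturation, elongation and lipin (33.3%), and in 2 of 4, 2 of 4 and 1 of 2 windows of the regulators, transport genes and LXR targets. In the related lists it was in 8 of 24 windows of other sterol and isoprenoid genes (33.3%), 15 of 35 of other fatty acid and glycerolipid synthesis genes (42.9%) and 2 of 19 of fatty acid oxidation genes (10.5%). The GC box GGGCGG was in 87.0% of member windows and 45.0% of all, and the E-box CACGTG in 15.2% and 7.26%. The sterol regulatory element core TCACNCCAC was in 1 member window (2.17%), that of SREBF2, and in 1.13% of all. Several members have more than 1 window, some of which overlap, and a match is a description of the letters only. The stretches below are SREBF2, which holds the single core match among the members, and 4 members whose A20-KO libraries all lay above the other 6; each runs 5′ to 3′ on the gene's strand and stops before the first annotated transcribed base, with the sterol regulatory element core and the CCAAT box, read on either strand, in capitals.
SREBF2 (chr22:41832855-41833078, plus strand): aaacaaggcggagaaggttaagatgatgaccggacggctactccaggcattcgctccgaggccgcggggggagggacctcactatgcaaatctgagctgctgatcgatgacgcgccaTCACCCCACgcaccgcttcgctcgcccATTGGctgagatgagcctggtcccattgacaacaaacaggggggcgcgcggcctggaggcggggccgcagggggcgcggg
INSIG1 (chr7:155297628-155297775, plus strand): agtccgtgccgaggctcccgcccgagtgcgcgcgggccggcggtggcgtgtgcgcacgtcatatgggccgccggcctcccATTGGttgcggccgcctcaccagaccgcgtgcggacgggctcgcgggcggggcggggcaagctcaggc
LSS (chr21:46228825-46229024, minus strand): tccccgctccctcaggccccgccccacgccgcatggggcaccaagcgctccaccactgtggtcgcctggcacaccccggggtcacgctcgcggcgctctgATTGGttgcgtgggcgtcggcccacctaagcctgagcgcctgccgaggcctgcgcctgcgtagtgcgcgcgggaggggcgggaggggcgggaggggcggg
TM7SF2 (chr11:65111622-65111844, plus strand): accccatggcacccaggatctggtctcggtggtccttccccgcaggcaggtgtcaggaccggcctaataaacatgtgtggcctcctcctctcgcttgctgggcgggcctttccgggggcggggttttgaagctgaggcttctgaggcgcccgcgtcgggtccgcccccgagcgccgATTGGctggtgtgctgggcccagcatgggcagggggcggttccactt
SCD (chr10:100346983-100347123, plus strand): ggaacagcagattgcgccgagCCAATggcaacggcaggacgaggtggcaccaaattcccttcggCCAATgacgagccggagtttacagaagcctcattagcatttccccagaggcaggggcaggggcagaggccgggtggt

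Of the 11 enzymes from squalene to cholesterol, 6 were called higher in A20-KO against A20-WT, beside 11.3% of all genes tested. In A20-OE against A20-KO 8 were called lower, beside 4.54% of all genes. In A20-OE against A20-WT 2 were called lower (15.4% of all genes) and 0 higher (15.7%). TM7SF2, a sterol C14 reductase (ENSG00000149809, plus strand of chromosome 11, 65111845 to 65116384), differed most: 7.72, 10.4 and 13.3 FPKM in A20-WT, 24.7, 23.3 and 30.7 in A20-KO, and 12.4, 10.9 and 12.3 in A20-OE. Its A20-KO libraries lay far above the rest, while A20-OE lay within the range of A20-WT. TM7SF2 differed on the log2 scale by 1.34 (SE 0.19, adjusted p = 0.00165) in A20-KO against A20-WT and -1.13 (SE 0.19, adjusted p = 0.0102) in A20-OE against A20-KO. In the GC-corrected fit they were 0.94 and -0.89, both called.

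FDFT1 encodes squalene synthase, the first enzyme committed to sterols. Its values were 27.3, 23.9 and 25.8 FPKM in A20-WT, 43.7, 42.5 and 42.4 in A20-KO, and 25.9, 24.1 and 27.3 in A20-OE, so A20-WT and A20-OE overlapped and A20-KO stood apart. FDFT1 changed by 0.74 on the log2 scale in A20-KO against A20-WT (adjusted p = 0.000712), and A20-OE against A20-KO gave -0.74 (adjusted p = 0.00268, SE 0.09 for both), and A20-OE against A20-WT gave 0.01 with an interval from -0.19 to 0.20. SQLE, squalene epoxidase, a rate-limiting step, stood at 22.5, 19.8 and 18.8 FPKM in A20-WT, 33.3, 33.8 and 28.8 in A20-KO, and 23.9, 24.6 and 24.7 in A20-OE. The rise was 0.65 (SE 0.10, adjusted p = 0.00237) and the difference of A20-OE from A20-KO -0.39 (SE 0.10, adjusted p = 0.0454), the latter lost in 9 of 23 settings. LSS, lanosterol synthase, which closes the sterol rings, had 9.13, 11.5 and 13.1 FPKM in A20-WT, 17.6, 16.6 and 16.8 in A20-KO, and 8.98, 8.62 and 9.15 in A20-OE. A20-OE lay at the low end of A20-WT, with changes on the log2 scale of 0.61 (SE 0.13, adjusted p = 0.00926) in A20-KO against A20-WT and -0.92 (SE 0.13, adjusted p = 0.00471) in A20-OE against A20-KO.

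MSMO1, a methylsterol oxidase, had 23.3, 20.1 and 20.7 FPKM in A20-WT, 32.6, 31.5 and 31.3 in A20-KO, and 24.6, 24.3 and 26.9 in A20-OE. MSMO1 rose by 0.58 on the log2 scale (SE 0.09, adjusted p = 0.00248) in A20-KO against A20-WT, and A20-OE against A20-KO gave -0.33 (SE 0.09, adjusted p = 0.0498), which was lost in 12 settings. HSD17B7, a keto-sterol reductase, had 4.17, 3.70 and 3.30 FPKM in A20-WT, 5.32, 5.39 and 6.46 in A20-KO, and 3.21, 3.57 and 4.19 in A20-OE, with log2 fold changes of 0.61 (adjusted p = 0.0152) and -0.64 (adjusted p = 0.0287, SE 0.14 for both). A20-KO lay highest for both genes. Reads of HSD17B7 (358 to 719 a library) are open to sharing with its copy HSD17B7P2 (39 to 123 reads). EBP and DHCR7, which act in the last steps of the pathway, were called lower in A20-OE against both other groups and were not called in A20-KO against A20-WT. EBP, the sterol isomerase, had 23.4, 24.3 and 29.1 FPKM in A20-WT, 22.8, 21.1 and 25.97 in A20-KO, and 14.99, 13.7 and 19.1 in A20-OE. A20-OE lay below both other groups, by -0.69 (SE 0.15, adjusted p = 0.00655) against A20-WT and -0.55 (SE 0.15, adjusted p = 0.048) against A20-KO. DHCR7, which makes cholesterol from its last precursor, had 27.7, 31.1 and 37.7 FPKM in A20-WT, 39.8, 39.3 and 41.7 in A20-KO, and 25.2, 22.6 and 25.8 in A20-OE. The 3 groups of DHCR7 did not overlap, with log2 fold changes of -0.71 (SE 0.12, adjusted p = 0.0102) in A20-OE against A20-KO and -0.38 (adjusted p = 0.0375) in A20-OE against A20-WT, the latter lost in 10 settings. Its A20-KO against A20-WT difference was 0.33 as deposited and 0.06 (limma adjusted p = 0.612) after the GC gradient was removed.

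NSDHL, SC5D and CYP51A1 were not called in any comparison. NSDHL, a sterol dehydrogenase, ran from 7.31 to 16.3 FPKM over the 9 libraries, and SC5D, a desaturase, from 5.15 to 7.62. CYP51A1, lanosterol demethylase, is uncertain: it had only 69 to 283 reads a library, and 79.4% of its exonic bases lie in another annotated gene of the same strand, AC000120.2, for which no read was counted.

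**Figure D3:**
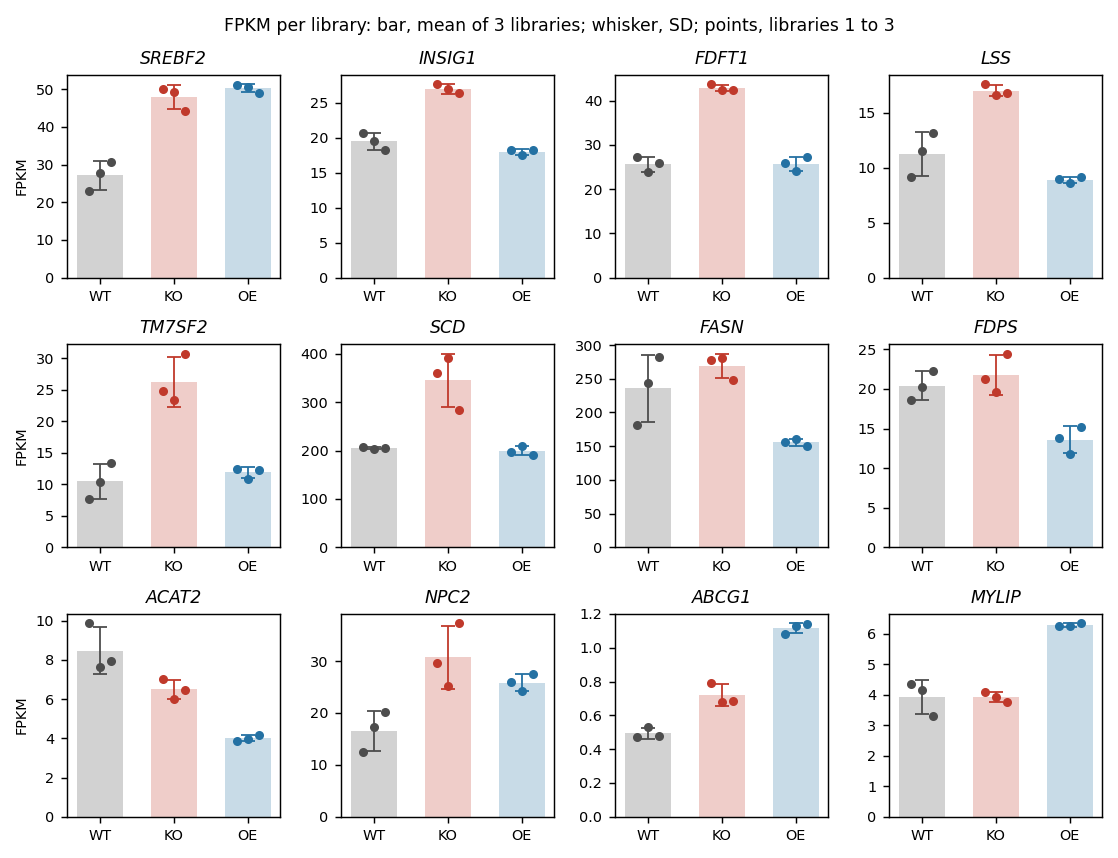
FPKM (vertical axes, from 0) of 12 members in A20-WT, A20-KO and A20-OE; points are libraries 1 to 3 of each group from left to right, bars the mean of 3 libraries and whiskers the SD. INSIG1, FDFT1, LSS, TM7SF2 and SCD are high in A20-KO alone, SREBF2 and NPC2 in both A20-KO and A20-OE, FASN, FDPS and ACAT2 are lowest in A20-OE, and ABCG1 and MYLIP highest there.

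In the mevalonate arm no enzyme was called in A20-KO against A20-WT. In A20-OE 5 of 7 were called lower than in A20-KO and 4 lower than in A20-WT, beside 4.54% and 15.4% of all genes tested. ACAT2, the cytosolic thiolase that joins a pair of acetyl-CoA (ENSG00000120437, plus strand of chromosome 6, 159760328 to 159779055), had the widest gap between A20-WT and A20-OE. Its values were 9.87, 7.61 and 7.95 FPKM in A20-WT, 7.02, 6.03 and 6.46 in A20-KO, and 3.86, 3.98 and 4.19 in A20-OE, with no overlap between any of the groups. The log2 fold change was -1.05 (SE 0.12, adjusted p = 0.000263) in A20-OE against A20-WT and -0.68 (adjusted p = 0.0122) in A20-OE against A20-KO, beside -0.37 (adjusted p = 0.0538) in A20-KO against A20-WT. On the opposite strand 33.9% of the ACAT2 exonic bases overlap SOD2-OT1, 26.5% overlap SOD2 and 9.23% overlap TCP1. The strand setting of the counting is not given in the sources used here, and mean reads were also lower in A20-KO and A20-OE for SOD2 (1962 in A20-WT, 1179 and 1043) and TCP1 (14490 in A20-WT, 9219 and 8944), so the share of ACAT2's values that comes from its neighbours was not tested.

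FDPS, farnesyl diphosphate synthase, stood at 18.7, 20.2 and 22.3 FPKM in A20-WT, 21.3, 19.6 and 24.5 in A20-KO, and 13.8, 11.8 and 15.2 in A20-OE. A20-WT and A20-KO overlapped, and A20-OE lay below both, by -0.59 (SE 0.13, adjusted p = 0.00713) against A20-WT and -0.68 (SE 0.13, adjusted p = 0.0152) against A20-KO. IDI1, the isopentenyl diphosphate isomerase, had 19.3, 15.2 and 13.7 FPKM in A20-WT, 15.8, 16.0 and 16.2 in A20-KO, and 10.9, 10.7 and 11.6 in A20-OE. It too was lowest in all 3 A20-OE libraries, with -0.52 (SE 0.12, adjusted p = 0.0114) against A20-WT and -0.53 (SE 0.12, adjusted p = 0.0333) against A20-KO. For FDPS and IDI1, 18.6% and 14.8% of the exonic bases overlap an antisense gene.

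MVK, mevalonate kinase, had 3.40, 4.13 and 5.02 FPKM in A20-WT, 5.58, 4.91 and 6.32 in A20-KO, and 2.78, 2.79 and 3.14 in A20-OE. Its log2 fold change was -0.92 (SE 0.16, adjusted p = 0.0109) in A20-OE against A20-KO and -0.50 (SE 0.16, adjusted p = 0.0383) in A20-OE against A20-WT, where it was lost in 9 settings. MVD, which makes isopentenyl diphosphate, had 16.6, 24.9 and 28.7 FPKM in A20-WT, 33.5, 28.3 and 40.5 in A20-KO, and 18.5, 15.7 and 19.1 in A20-OE. A20-KO and A20-OE did not overlap (-0.93, SE 0.21, adjusted p = 0.0287), whereas the A20-WT libraries reached from the A20-OE range into the A20-KO range. HMGCS1, which makes HMG-CoA, and PMVK, phosphomevalonate kinase, were not called: HMGCS1 ran from 11.1 to 19.8 FPKM and was lowest in the 3 A20-OE libraries, and PMVK ran from 8.25 to 18.9 FPKM and was highest in the 3 A20-KO libraries.

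The genes of sterol movement went another way. All 3 transport genes and all 3 genes listed as LXR targets were called higher in A20-OE than in A20-WT, beside 15.7% of all genes tested. These lists hold 6 of the 8 members called higher there. The 3 genes of the LXR list do not stand for all LXR targets. NPC2, a soluble carrier that takes cholesterol out of the lysosome, had 12.5, 17.2 and 20.1 FPKM in A20-WT, 29.6, 25.3 and 37.3 in A20-KO, and 25.9, 24.2 and 27.5 in A20-OE. Every A20-KO and A20-OE library lay above every A20-WT library, and the log2 fold change was 0.89 (SE 0.19, adjusted p = 0.01) in A20-KO and 0.66 (SE 0.19, adjusted p = 0.0256) in A20-OE against A20-WT. STARD4, a cytosolic sterol carrier, had 8.33, 6.58 and 5.55 FPKM in A20-WT, 10.9, 11.6 and 8.39 in A20-KO, and 11.8, 12.4 and 10.6 in A20-OE, with 0.59 (SE 0.17, adjusted p = 0.0349) for A20-KO and 0.78 (SE 0.17, adjusted p = 0.00776) for A20-OE against A20-WT. A20-KO library 3 was only just above A20-WT library 1. NPC1, the membrane partner of NPC2, ran from 5.87 to 6.24 FPKM in A20-WT and from 7.85 to 9.02 in A20-OE, a log2 fold change of 0.50 (SE 0.12, adjusted p = 0.0148).

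Of the LXR targets, MYLIP, a ubiquitin ligase for lipoprotein receptors, had 4.34, 4.14 and 3.30 FPKM in A20-WT, 4.10, 3.92 and 3.76 in A20-KO, and 6.26, 6.25 and 6.34 in A20-OE. It was high in A20-OE alone, by 0.67 against A20-KO (adjusted p = 0.0126) and against A20-WT (adjusted p = 0.0025, SE 0.12 for both). ABCG1, a sterol exporter (ENSG00000160179, plus strand of chromosome 21, 42199689 to 42297244), was low throughout, with 72 to 171 reads a library. Its values were 0.474, 0.530 and 0.477 FPKM in A20-WT, 0.793, 0.678 and 0.687 in A20-KO, and 1.08, 1.13 and 1.14 in A20-OE. The 3 groups did not overlap, and A20-OE against A20-WT gave 1.04 (SE 0.16, adjusted p = 0.00129), while the steps from A20-WT to A20-KO (0.46, adjusted p = 0.0661) and from A20-KO to A20-OE (0.57, adjusted p = 0.0569) were not called. ABCA1, the exporter that loads apolipoprotein A-I, had 0.256, 0.208 and 0.194 FPKM in A20-WT, 0.410, 0.459 and 0.287 in A20-KO, and 0.505, 0.724 and 0.380 in A20-OE, from 55 to 204 reads. A20-OE lay above A20-WT by 0.97 (SE 0.28, adjusted p = 0.0269) and overlapped A20-KO. At these levels the pseudocount of 0.1 understates the fold.

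Among the 4 genes of fatty acid synthesis, ACSS2 was called higher in A20-KO against A20-WT and FASN and ACACA lower in A20-OE against A20-KO. FASN, fatty acid synthase, one of the most abundant members, had 182, 243 and 282 FPKM in A20-WT, 278, 281 and 248 in A20-KO, and 157, 160 and 150 in A20-OE. The A20-WT libraries were widely spread, from 182 FPKM in library 1 to the A20-KO range in library 3, and the A20-OE libraries lay below all others. A20-OE differed by -0.79 on the log2 scale (SE 0.16, adjusted p = 0.0189) against A20-KO and -0.57 (SE 0.16, adjusted p = 0.0207) against A20-WT. ACACA, acetyl-CoA carboxylase, which makes malonyl-CoA, had 14.7, 14.99 and 14.4 FPKM in A20-WT, 17.5, 19.6 and 14.5 in A20-KO, and 11.3, 13.2 and 10.3 in A20-OE, with -0.56 (SE 0.13, adjusted p = 0.033) against A20-KO. A20-KO library 3 lay with A20-WT.

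ACLY, ATP citrate lyase, which cuts citrate to acetyl-CoA, had 72.3, 76.8 and 78.6 FPKM in A20-WT, 67.8, 69.5 and 53.9 in A20-KO, and 47.4, 50.04 and 47.2 in A20-OE. It stepped down across the 3 groups without overlap, and A20-OE against A20-WT was called (-0.65, SE 0.11, adjusted p = 0.00206). ACSS2 makes acetyl-CoA from acetate, and it differed the other way: 7.86, 7.10 and 7.72 FPKM in A20-WT, 13.1, 12.2 and 14.1 in A20-KO, and 9.87, 9.23 and 11.6 in A20-OE. The groups again did not overlap, with A20-KO highest (0.79 against A20-WT, SE 0.11, adjusted p = 0.00155) and A20-OE between the other 2 (0.43 against A20-WT, adjusted p = 0.0164).

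In desaturation and elongation, SCD, stearoyl-CoA desaturase, which makes oleate (ENSG00000099194, plus strand of chromosome 10, 100347124 to 100364834), had 208, 204 and 205 FPKM in A20-WT, 360, 391 and 285 in A20-KO, and 198, 210 and 192 in A20-OE. A20-KO stood above the other 6 libraries, which overlapped. SCD changed by 0.73 on the log2 scale (SE 0.13, adjusted p = 0.00443) in A20-KO against A20-WT and by -0.78 (SE 0.13, adjusted p = 0.0101) in A20-OE against A20-KO, and A20-OE against A20-WT gave -0.04 with an interval from -0.34 to 0.25. FADS2, the delta-6 desaturase of polyunsaturated fatty acids, had 1.44, 1.75 and 2.13 FPKM in A20-WT, 1.87, 1.76 and 2.08 in A20-KO, and 1.06, 1.08 and 0.829 in A20-OE. ELOVL6, which elongates palmitate, had 12.5, 9.78 and 9.28 FPKM in A20-WT, 10.8, 10.7 and 9.07 in A20-KO, and 7.01, 7.58 and 7.03 in A20-OE. Both genes were lowest in the 3 A20-OE libraries, FADS2 by -0.77 (SE 0.18, adjusted p = 0.00957) and ELOVL6 by -0.53 (SE 0.13, adjusted p = 0.0129) against A20-WT. Against A20-KO they differed by -0.89 (adjusted p = 0.0195) and -0.49 (adjusted p = 0.0472). ELOVL5, an elongase of polyunsaturated fatty acids, FADS1, the delta-5 desaturase, and LPIN1, a phosphatidate phosphatase, were not called. ELOVL5 ran from 23.7 to 31.4 FPKM, FADS1 from 6.38 to 10.4 and LPIN1 from 1.62 to 2.82 FPKM over the 9 libraries.

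The members vary in GC content, and the GC gradient was widest in A20-WT library 1 and A20-KO library 3, in opposite directions. Members with under 50% GC (18) and with at least 50% (20) were therefore set apart. In A20-KO against A20-WT, 8 of the 18 and 4 of the 20 were called higher (11.3% of all genes), with medians of 0.41 and 0.30. In A20-OE against A20-KO, 9 of the 18 and 10 of the 20 were called lower (4.54% of all genes), with medians of -0.39 and -0.60. In A20-OE against A20-WT, 2 of the 18 and 8 of the 20 were called lower (15.4% of all genes), with medians of -0.01 and -0.32. In each class 4 were called higher there (15.7% of all genes). Removing the gradient kept every call of the 3 comparisons (12, 20 and 18). It added IDI1, SC5D and ELOVL6 among those higher in A20-KO against A20-WT, giving 15, and ACAT2 and ACLY among those lower, giving 2, while 12.5% of all genes were then called higher and 13.6% lower. The fold of TM7SF2 in A20-KO against A20-WT fell under 2 in that fit while that of NPC2 rose to 1.02 on the log2 scale. In A20-OE against A20-WT, 17 members were then called lower, beside 19.2% of all genes, among them SREBF1 (-0.37, adjusted p = 0.00215) and SCAP (-0.30, adjusted p = 0.00969). The gradient's part in the single values was not tested further. With A20-WT library 1 and A20-KO library 3 both left out, 13 members were called higher in A20-KO against A20-WT (9.23% of all genes) and 22 lower in A20-OE against A20-KO (6.08%). In A20-OE against A20-WT 11 were called higher (16.9%) and 13 lower (18.0%).

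**Figure D4:**
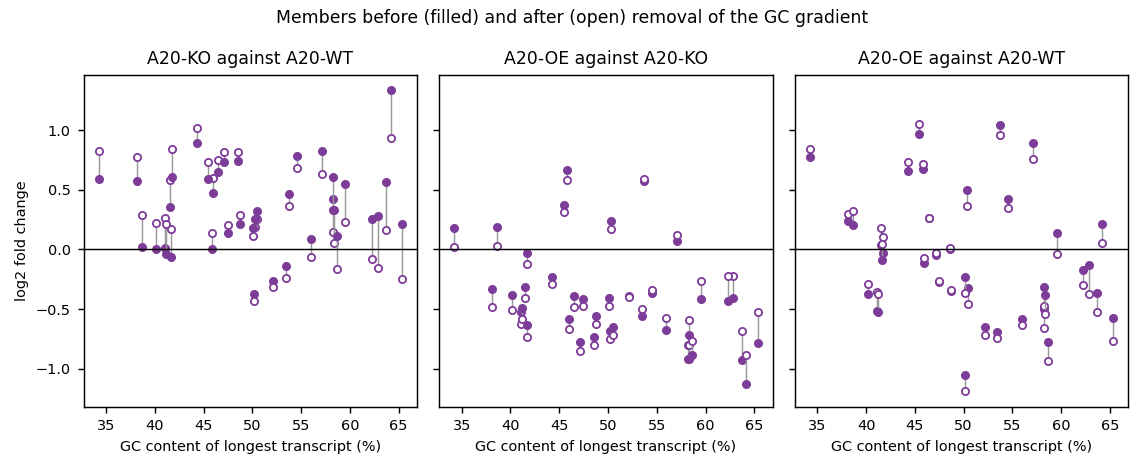
Log2 fold change (vertical axis) of the 38 members against the GC content of their longest transcript in percent (horizontal axis) in the 3 comparisons; filled points are as deposited, open points after removal of the GC gradient in each library, and a line joins the same gene. In A20-KO against A20-WT removal raises the 18 members under 50% GC and lowers the 20 others, and the median over members moves from 0.33 to 0.24.

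Related lists, also chosen by name, are given beside the members, with no test between the lists. Over all genes tested, 11.3% were called higher and 11.0% lower in A20-KO against A20-WT. The shares were 4.43% and 4.54% in A20-OE against A20-KO, and 15.7% and 15.4% in A20-OE against A20-WT. Of 23 other sterol and isoprenoid genes, 1 was called higher and 7 lower in A20-KO against A20-WT, 2 higher and 1 lower in A20-OE against A20-KO, and 2 higher and 8 lower in A20-OE against A20-WT, with medians of -0.15, -0.01 and -0.19. CYP27A1, which oxidises cholesterol to 27-hydroxycholesterol, rose from 0.311, 0.282 and 0.349 FPKM in A20-WT to 1.34, 1.04 and 1.18 in A20-KO (log2 fold change 1.63, adjusted p = 0.00075) and was 1.03, 1.30 and 0.905 in A20-OE, from 21 to 97 reads. PDSS1, which makes the ubiquinone side chain, fell from 16.7, 11.1 and 10.6 FPKM to 6.99, 5.08 and 6.58 (-1.01, adjusted p = 0.00632) and was 4.59, 4.31 and 5.34 in A20-OE. LBR, a sterol C14 reductase of the nuclear envelope and thus of the same activity as TM7SF2, was lower in A20-KO against A20-WT (-0.81, adjusted p = 0.00544). It was also lower in A20-OE against A20-WT (-0.94, adjusted p = 0.00152). TMEM97, a sterol-binding membrane protein, was lower than in A20-WT in A20-OE (-0.86, adjusted p = 0.000564) and in A20-KO (-0.51, adjusted p = 0.0118). ERG28, a scaffold of the C4 demethylation enzymes, was lower in A20-OE than in A20-KO (-0.83, adjusted p = 0.00977) and A20-WT (-0.42, adjusted p = 0.0434).

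Of 29 other fatty acid and glycerolipid synthesis genes 27 were tested. In A20-KO against A20-WT 5 were called higher and 4 lower, in A20-OE against A20-KO 2 and 3, and in A20-OE against A20-WT 6 and 6, with medians of 0.05, -0.07 and -0.04. FADS3, a relative of FADS1 and FADS2 beside them on chromosome 11, was higher by 0.92 (adjusted p = 0.00384) in A20-KO and 1.12 (adjusted p = 0.000788) in A20-OE against A20-WT. LPIN3, a relative of LPIN1, and DGAT2, which makes triglyceride, were higher in A20-OE against A20-WT, by 0.88 (adjusted p = 0.000242) and 0.76 (adjusted p = 0.0085). LPIN3 was also higher in A20-KO against A20-WT (0.60, adjusted p = 0.00314). ELOVL3, an elongase, was higher in A20-KO against A20-WT (0.575, adjusted p = 0.0242) and lower in A20-OE against A20-KO (-0.76, adjusted p = 0.0186). HACD3, a dehydratase of the elongation cycle, was lower than in A20-WT in A20-KO (-0.75, adjusted p = 0.0035) and in A20-OE (-0.585, adjusted p = 0.00684). Of 20 fatty acid oxidation genes 19 were tested. In A20-KO against A20-WT 2 were called higher and 1 lower, beside 11.3% and 11.0% of all genes. In A20-OE against A20-KO 0 were higher and 2 lower (4.43% and 4.54%), and in A20-OE against A20-WT 2 higher and 4 lower (15.7% and 15.4%). ACADVL was higher by 0.61 (adjusted p = 0.0108) in A20-KO and 0.57 (adjusted p = 0.0104) in A20-OE against A20-WT. DECR1 was higher in A20-KO than in A20-WT (0.405, adjusted p = 0.0391) and lower in A20-OE than in A20-KO (-0.46, adjusted p = 0.0473). SLC25A20 and HADH were lower in A20-OE against A20-WT, by -0.69 (adjusted p = 0.00259) and -0.56 (adjusted p = 0.0163). SLC25A20 was also lower in A20-OE than in A20-KO (-0.59, adjusted p = 0.0227). CPT1A, the gate of mitochondrial fatty acid uptake, fell from 28.0, 27.3 and 28.3 FPKM in A20-WT to 20.3, 20.9 and 16.9 in A20-KO (-0.53, adjusted p = 0.00506) and 15.9, 15.9 and 16.5 in A20-OE (-0.79 against A20-WT, adjusted p = 0.000381).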

How the data were processed

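RNA-seq of HCT116 cells was analysed in 9 libraries, 3 each of A20-WT, A20-KO and A20-OE, grouped by GEO's titles. The authors deposited FPKM per gene; their processing notes name HISAT2 (version 2.0.5) and featureCounts (version 1.5.0-p3). Gene coordinates in the table match GENCODE 29 on GRCh38. FPKM multiplied by gene length and by a depth implied for each library from its low values gave whole reads for 100% of the nonzero values. The tolerance was 0.05 of a read or, for large counts, the rounding of the file. These reads give the read totals and one alternative test. Their totals were 0.95 to 1.066 times the implied depth, and above it in A20-KO library 3 and A20-OE libraries 1 and 3. The implied depth is therefore not a plain count of mapped reads, and how it was set is not given. Factors of the median-of-ratios alternative were only 1.005 to 1.014. FPKM are not counts, so the test was limma (version 3.58.1, R 4.3.3) with a variance trend on log2(FPKM + 0.1), over the 21636 genes with a mean of at least 0.1 FPKM, with all 3 groups in one fit and Benjamini-Hochberg adjustment over those genes. Genes were called at an adjusted p under 0.05. The added 0.1 makes every fold change of a low gene smaller than the ratio of its FPKM. Exact permutation of 3 libraries against 3 cannot give p under 0.1, and reads were not tied to single molecules by identifiers.

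The members and lists were chosen with earlier results of these data known. Values in every library are given for members called with an absolute log2 fold change above 0.5 in a comparison and for the 4 regulators, and of each related list at most 5 called genes are named, taken in order of their largest absolute log2 fold change in any comparison. The script was tested on simulated data. GC content came from the longest GENCODE 29 transcript. The GC correction removed, in each library, the median deviation in 50 bins of GC content. It and the removal of 2 libraries together were added after seeing the data; the other alternatives concern pseudocount, filter, scaling, fit and single libraries.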

Additional observations from a re-analysis of the deposited data

How the results depend on the processing

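Each group had 3 libraries, and most effects were under 2-fold. Over 23 alternatives the calls of members kept their direction and their call in 263 cases and lost it in 13 in A20-KO against A20-WT, 363 and 97 in A20-OE against A20-KO and 371 and 41 in A20-OE against A20-WT, and none reversed. The members called lower in A20-KO against A20-WT were 0 in the reported fit. They became 1 with a mean FPKM of at least 1 (19.1% of all genes) or total-read scaling (11.0%). They were also 1 with the replicate block (13.1%) or limma-voom on recovered reads (12.9%). They became 2 with the GC correction (13.6%) and 3 with the GC correction and block (15.3%). In A20-OE against A20-KO the 1 called higher became 2 with a pseudocount of 1 (4.72% of all genes), no variance trend (3.20%) or limma-voom (6.02%). It was also 2 with the GC correction (7.20%) and the correction with the block (8.29%). The 19 called lower became 12 without a filter (1.65% of all genes) and 11 without the trend (2.45%). The 1 past the fold there became 0 with the GC correction, also with the block. In A20-OE against A20-WT the 10 called lower became 17 with the GC correction and 18 with the block too, and the 2 past the fold became 0 with a pseudocount of 1, and 1 with a mean FPKM of at least 1 or total-read scaling.

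Leaving out 1 library at a time gave 11 to 16 members higher, 0 to 0 lower and 1 to 2 past the fold in A20-KO against A20-WT (2 without A20-WT library 3 or A20-KO library 2). It gave 0 to 2 higher, 4 to 22 lower and 0 to 3 past the fold in A20-OE against A20-KO (0 without A20-OE library 2, 3 without A20-KO library 2), and 5 to 10 higher, 6 to 13 lower and 2 to 3 past the fold in A20-OE against A20-WT. Over all genes in these settings, 7.33% to 12.2% were called higher and 7.04% to 10.8% lower in A20-KO against A20-WT. The shares were 1.14% to 6.68% and 0.961% to 8.28% in A20-OE against A20-KO. They were 11.2% to 16.2% and 11.1% to 16.2% in A20-OE against A20-WT. With an arm of 2 libraries the spread is pooled over the groups. Among the regulators, SREBF1 in A20-KO against A20-WT reversed to -0.15 and SCAP to -0.078 under the GC correction, with or without the block. SREBF1 in A20-OE against A20-WT reversed to 0.034 without A20-WT library 3 (range over single libraries left out -0.322 to 0.034). None of these was called, and the cause was not tested. Other uncalled members were not followed over all settings.

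Libraries of the same replicate number shared little deviation (mean correlation 0.037, from -0.027 to 0.121, beside -0.018 for different numbers). Deviations were taken from the group mean and sum to 0 in each group. The mean for different numbers is therefore largely set by that for the same number and is no separate reference. Libraries numbered 3 correlated at 0.098, 0.045 and 0.121. Library 3 also had the highest GC gradient of its group (0.122 in A20-WT, 0.539 in A20-KO and 0.106 in A20-OE). Whether libraries of a number were handled together was not tested. The numbers are not taken as pairs, and the replicate block is given as an alternative. With the replicate block 15 members were called higher in A20-KO against A20-WT (12.8% of all genes), 24 lower in A20-OE against A20-KO (6.22%), and 8 higher (16.9%) and 12 lower (17.0%) in A20-OE against A20-WT. Over all genes, total-read scaling moved the calls in A20-OE against A20-KO from 4.43% higher and 4.54% lower to 3.38% and 6.53%.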
